A study of Mus musculus with 24 samples.

Results

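Aptx encodes aprataxin, which removes AMP left on the 5′ end of a DNA break when a ligase fails. Aptx was followed here together with 8 genes linked to DNA single-strand breaks and their repair. The 9 genes (Aptx, Xrcc1, Lig3, Parp1, Parp2, Tdp1, Tdp2, Top1 and Polb) were taken by name from the 22562 genes of the expression tables. All 9 were present in both tables and all 9 passed the filter on low values in both tissues. Total RNA was sequenced from whole cerebellum and whole cortex of adult mice at a symptomatic age. Double mutants (Atm Nes-cre; Aptx-/-) carried an Aptx-/- genotype in every cell and a conditional Atm allele that Nestin-cre, expressed in the developing nervous system, removed there. Aptx mutants were Aptx-/-, Atm mutants were Atm Nes-cre, and the control mice carry no further genotype in the labels. Libraries from the cerebellum came from 4 controls, 2 Atm mutants, 2 Aptx mutants and 6 double mutants, those from the cortex from 4 controls and 6 double mutants. Mice of either sex were used, and the part of Aptx or Atm removed in each allele was not given in the sources used here. Nothing in the labels ties the libraries to litters, so the p-values measure the spread between these samples.

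Single-strand breaks arise all the time in neurons from oxidative damage, from base repair and from topoisomerase 1 that stalls while it relaxes DNA. Poly(ADP-ribose) polymerases sense the break and mark it with poly(ADP-ribose), the scaffold protein Xrcc1 is drawn to that mark, damaged ends are trimmed by end-processing enzymes such as aprataxin and the tyrosyl-DNA phosphodiesterases, DNA polymerase beta fills the gap, and DNA ligase III seals the nick. Inherited loss of human APTX causes ataxia with oculomotor apraxia, and mutations of human TDP1 and XRCC1 also cause cerebellar ataxia, so that the cerebellum is the tissue in which this pathway is best known for disease.

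Levels are given as deposited, in FPKM, fragments per kilobase for a fixed number of mapped fragments, a unit that corrects for gene length and library size and so allows levels of different genes to be compared within a library. Read counts were not part of the tables, so the depth behind each value is unknown. Changes were tested on log2(FPKM + 1), which understates the change of low genes, over all genes that reached 1 FPKM in at least 2 cerebellum or 4 cortex libraries. "Rose", "fell" and "called" mean an adjusted p below 0.05 over all genes tested. Several facts of the libraries touch every comparison with controls. The names of all mutant libraries carry a different code from those of all controls, and no label says what the code stands for. Genotype and whatever the code marks cannot be told apart there. In the 4 control libraries and double mutant 6 of each tissue, at least 98.5% of values above 0 were written with more than 10 significant digits, against at most 0.0448% in the other 14 libraries, and what else differed in their making was not tested. Ddx3y, a Y-linked gene, ranged from 19.9 to 28.9 FPKM in double mutants 2, 3 and 5 of both tissues and Aptx mutant 1. It was 2.30 FPKM in cerebellum and 8.24 FPKM in cortex for double mutant 6, and at most 0.103 FPKM in all other libraries. These others held all controls of both tissues, so Ddx3y was not balanced between mutants and controls. Markers of the labelled tissue were in place, with a summed level of 10 granule neuron markers of at least 612 FPKM in every cerebellum library and 63.9 to 89.8 FPKM over cortex libraries. These markers also moved with genotype. The granule neuron list summed to 612 to 756 FPKM in cerebellum controls and 776 to 953 FPKM in the 10 mutant libraries, and 8 astrocyte markers summed to 889 to 995 FPKM in controls and 1093 to 1212 FPKM in mutants. In double mutant cerebellum 5 of 10 granule neuron and 4 of 8 astrocyte markers rose and none of either list fell. There 11 Purkinje cell markers summed to 1080 to 1196 FPKM against 1298 to 1508 FPKM in controls (3 rose and 2 fell). Over all genes tested in this comparison, 22.3% rose and 10.1% fell. A list of 10 brain stem and pituitary markers summed to 24.7 to 159 FPKM in cerebellum controls and 1.05 to 8.82 FPKM in the 10 cerebellum mutant libraries, in which at least 9 of the 10 averaged under 1 FPKM within each group. In the cortex, 8 oligodendrocyte markers summed to 490 to 794 FPKM in double mutants and 936 to 1055 FPKM in controls. There 9 excitatory neuron markers summed to 201 to 261 FPKM against 153 to 180 FPKM (7 rose and 1 fell), where 24.3% of all genes tested rose and 14.5% fell. Cortex control 4 stood apart, since 1 gene, Gm10654, made up 58.1% of its FPKM sum, which was 554380 against 239529 to 256460 in the other cortex libraries. In whole tissue, fewer cells of a type and less RNA per cell cannot be told apart, and the part of these differences in the results below was not tested.

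In the mm9 build to which the reads were mapped, Aptx lies on the minus strand of chromosome 4 (chr4:40629415-40650227). In GENCODE its transcript of 8 exons is 5250 bases long, and the last exon holds 4332 of these bases (82.5%). Parp2 (chr14:51427621-51440975), Lig3 (chr11:82594610-82617776), Xrcc1 (chr7:25332169-25358457), Parp1 (chr1:182499086-182531384), Tdp1 (chr12:101122727-101193429), Tdp2 (chr13:24923548-24934022) and Top1 (chr2:160471624-160548500) lie on plus strands, and Polb (chr8:23738591-23763909) on a minus strand. The strand setting used in counting was not given in the sources used here. Lig3 shares 1826 bases with Rffl on the opposite strand, Top1 shares 2169 bases with Gm17299 and Polb shares 1426 bases with Gm17362, so that without strand the reads of these stretches could not be assigned to a single gene.

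The windows around the start sites of Parp2, Lig3 and Xrcc1 are shown because, of the 9 genes other than Aptx, these had the largest changes between double mutants and controls over both tissues. They run from 250 bases before to 50 bases after the start, all on the plus strand, as given by RefSeq for GRCm38.p6 (Parp2 chr14:50807666-50807965, Lig3 chr11:82780859-82781158, Xrcc1 chr7:24546449-24546748). Capitals mark the GC box, GGGCGG, in any of them. In Parp2 they also mark the octamer, ATTTGCAT. In Xrcc1 they mark the CCAAT box, CCAAT. Both strands were searched, and no marked match overlaps another.
Parp2: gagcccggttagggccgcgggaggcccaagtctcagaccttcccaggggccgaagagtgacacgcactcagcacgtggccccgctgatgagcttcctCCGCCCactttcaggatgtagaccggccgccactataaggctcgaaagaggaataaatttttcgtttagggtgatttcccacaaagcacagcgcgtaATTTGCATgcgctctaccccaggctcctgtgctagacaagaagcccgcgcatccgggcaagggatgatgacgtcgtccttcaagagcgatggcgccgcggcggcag
Lig3: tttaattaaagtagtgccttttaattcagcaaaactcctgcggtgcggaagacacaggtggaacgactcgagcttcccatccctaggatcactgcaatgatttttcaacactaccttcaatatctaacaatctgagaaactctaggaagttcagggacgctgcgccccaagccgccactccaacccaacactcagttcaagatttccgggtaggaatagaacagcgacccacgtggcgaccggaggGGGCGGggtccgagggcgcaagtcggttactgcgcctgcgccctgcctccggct
Xrcc1: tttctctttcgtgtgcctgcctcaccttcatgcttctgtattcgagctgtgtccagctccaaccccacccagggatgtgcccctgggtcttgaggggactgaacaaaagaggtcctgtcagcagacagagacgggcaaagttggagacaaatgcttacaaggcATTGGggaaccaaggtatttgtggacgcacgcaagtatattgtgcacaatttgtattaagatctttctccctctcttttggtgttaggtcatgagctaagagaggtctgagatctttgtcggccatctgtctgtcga
Windows were found for 7 of the 9 genes, with a pair of starts for Aptx, which gave 8 windows. The GC box was in 6 of the 8 windows (Aptx, Lig3, Parp1, Parp2, Tdp1 and Top1) and in 35.7% of 32851 windows of the same length. The CCAAT box was in 2 of the 8 windows (Aptx and Xrcc1) and in 37.4% of all windows. Only the Parp2 window held the octamer, which was in 1.74% of all windows. The E2F letters TTTCGCGC, in 0.323% of all windows, were in none of the 8. The TATA box, TATAAA, in 13.6% of all windows, was in none either, and nor were the ETS letters CCGGAAGT, in 3.89% of all windows. No searched motif was in both the Parp2 and the Lig3 window other than the GC box. The Xrcc1 window held 7 CpG sites, equal to the median of all windows, while those of Parp2 and Lig3 held 25 and 19.

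In control cerebellum, the mean level of the 9 genes spanned 3.27 FPKM for Aptx to 27.3 FPKM for Polb. Polb (27.3 ± 2.23, SD, n = 4) and Top1 (26.0 ± 0.73) led, and their ranges overlapped. Parp1 (17.7 ± 2.86), Tdp2 (14.1 ± 0.65), Parp2 (9.80 ± 1.48), Xrcc1 (9.27 ± 1.64), Lig3 (5.03 ± 0.21), Tdp1 (3.57 ± 0.40) and Aptx (3.27 ± 0.22) followed. In this order Parp2 overlapped Xrcc1 and Tdp1 overlapped Aptx, and the other neighbours were separate. Aptx thus stood at percentile 20.8 among genes of at least 1 FPKM in control cerebellum, and Polb at 85.7.

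In control cortex, Top1 (24.6 ± 2.18 FPKM, SD, n = 4) and Polb (23.8 ± 1.02) led again and overlapped, followed by Parp1 (18.6 ± 0.60), Parp2 (9.98 ± 1.61), Tdp2 (8.06 ± 0.29), Xrcc1 (6.08 ± 0.14), Aptx (4.44 ± 0.12), Lig3 (4.31 ± 0.20) and Tdp1 (3.01 ± 0.18). Parp2 overlapped Tdp2 and Aptx overlapped Lig3 in that order. Side by side, with no test because the tables were made separately, the control mean in cerebellum was 1.75 times that in cortex for Tdp2, 1.52 times for Xrcc1, 1.17 times for Lig3 and 0.737 times for Aptx, each with ranges that did not overlap. Parp1, Parp2, Tdp1, Top1 and Polb had overlapping ranges in control cerebellum and control cortex. The share of all genes with separate ranges between the control tissues was not counted.

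**Figure D1:**
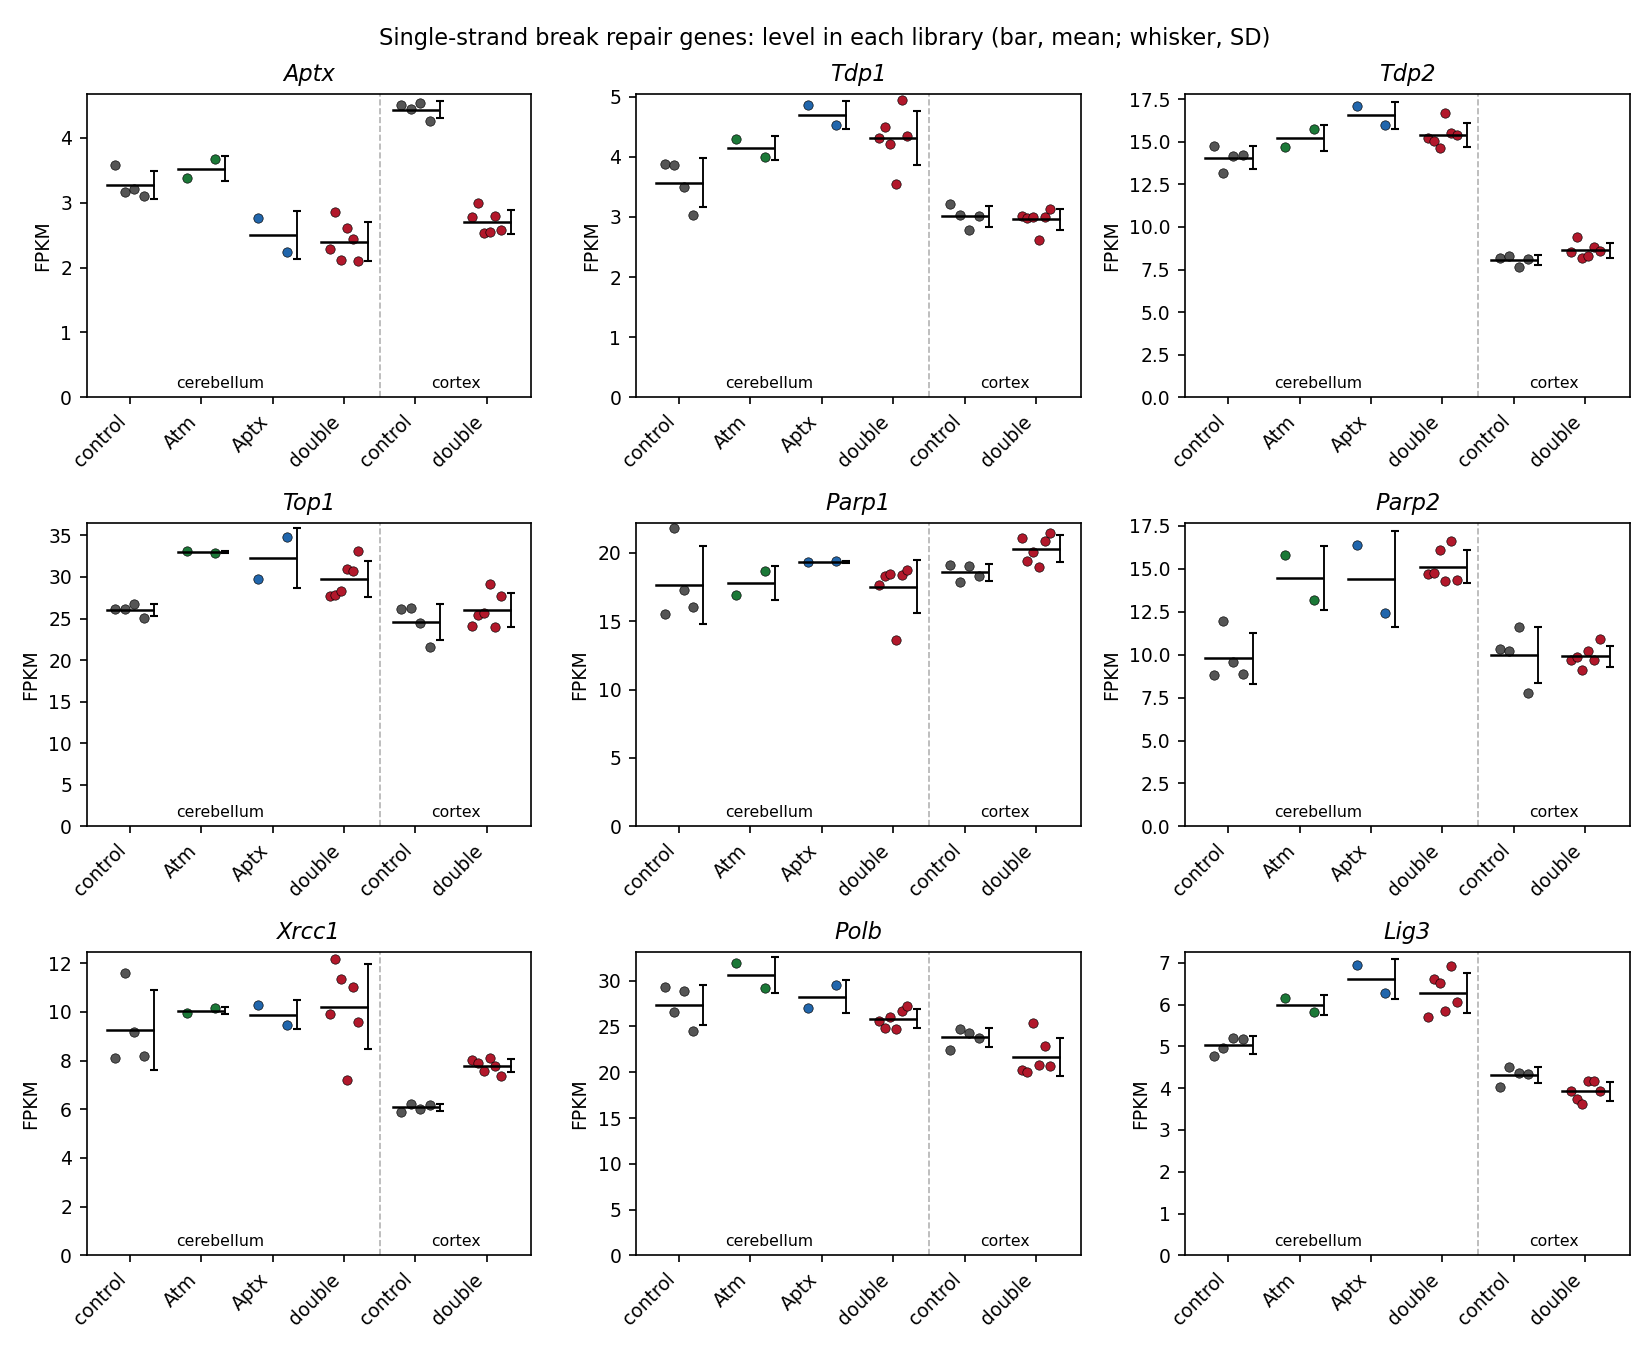
Level of each of the 9 genes in FPKM (vertical axis, from 0) in every library, by genotype in cerebellum (left of the dashed line) and cortex (right). Points are libraries, bars are means and whiskers are 1 SD. The 8 Aptx-/- cerebellum libraries sit between 2.09 and 2.86 FPKM for Aptx, below the other 6, and the 10 mutant cerebellum libraries sit above the 4 controls for Parp2 (12.4 to 16.6 against 8.79 to 11.9 FPKM), while in cortex the Parp2 ranges overlap.

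Aptx, the gene removed by design, checks the labels. In cerebellum Aptx measured 2.29, 2.86, 2.11, 2.60, 2.44 and 2.09 FPKM in double mutants 1 to 6, 2.77 and 2.25 FPKM in the Aptx mutants, 3.39 and 3.67 FPKM in the Atm mutants, and 3.59, 3.17, 3.21 and 3.11 FPKM in the controls. All 8 Aptx-/- libraries were below all 6 libraries with an intact gene, so for Aptx no library went against its label. Among all genes tested, 6.32% had all double mutants below all controls in cerebellum. That share leaves out the single mutants, and none was counted for the split of 8 against 6 libraries. Aptx RNA was still present in every Aptx-/- library. Double mutants kept 73.4% of the control mean and Aptx mutants 76.7%, while Atm mutants were at 108%.

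In cortex Aptx measured 2.78, 3.0, 2.53, 2.55, 2.79 and 2.59 FPKM in double mutants 1 to 6 and 4.51, 4.44, 4.53 and 4.26 FPKM in the controls. The groups were again separate, as 9.39% of all genes tested were in that direction, and the double mutants kept 61.0% of the control mean. On the log2 scale Aptx fell by 0.33 in double mutant cerebellum (95% interval -0.50 to -0.16, adjusted p = 0.00581) and by 0.55 in double mutant cortex (-0.67 to -0.44, adjusted p = 1.58e-05). Both calls held under all alternatives tried, 23 in cerebellum and 18 in cortex. The Aptx mutant difference of -0.29 (-0.51 to -0.06) was not called with 2 libraries (adjusted p = 0.0792). The Atm mutant difference of 0.09 (-0.14 to 0.31) was not called either (adjusted p = 0.652).

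For Aptx, the double mutants differed from the Aptx mutants by -0.05 (-0.26 to 0.17, adjusted p = 0.998). Against the Atm mutants, which share the name code, Aptx fell by 0.42 in double mutants (-0.63 to -0.20, adjusted p = 0.0439), to 68.0% of the Atm mutant mean. It was the only one of the 9 genes called in that comparison, in which 2.24% of all genes tested were called. This call was lost in 13 of 23 alternatives, in which the Aptx difference ranged from -0.47 to -0.35.

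Atm, the kinase that signals double-strand breaks and the other gene targeted in these mice, did not show a lower level per gene in the Atm mutants. Atm measured 7.45 and 8.22 FPKM in the Atm mutants, and 6.88, 6.75, 7.05 and 7.13 FPKM in the cerebellum controls. Both mutant libraries were above all 4 controls, with a difference of 0.15 (-0.01 to 0.31, adjusted p = 0.211). How many of all genes were separate in this way was not counted. In double mutant cerebellum Atm ranged from 7.59 to 9.14 FPKM (median 8.14) and rose by 0.20 (0.08 to 0.32, adjusted p = 0.0128), and it rose by 0.32 in Aptx mutants (adjusted p = 0.0129). The first call was lost under median rescaling (0.14), the replicate block (0.17) and the Ddx3y covariate (0.18, adjusted p = 0.0697, the highest of the 3), and the second without Aptx mutant 1 (0.35) or Aptx mutant 2 (0.29, adjusted p = 0.121, the higher of both). The level of Atm over the whole gene therefore does not check the Atm label, and which exons carried the reads could not be seen in values per gene.

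In double mutant cerebellum, Parp2, Lig3, Top1 and Tdp1 rose and Aptx fell, while Parp1, Xrcc1, Tdp2 and Polb were not called. That is 4 of 9 higher and 1 of 9 lower, read against a background in which 32.4% of the 13277 genes tested were called, 22.3% higher and 10.1% lower. The median change of the 8 genes other than Aptx was 0.15, against 0.06 over all genes tested. Scaling moved the balance of the background: 68.9% of all called genes were higher in the main fit, 52.2% after quantile normalization and 47.7% after median rescaling.

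Parp2 had the largest change of the 9. It is the second nuclear sensor of breaks and makes poly(ADP-ribose) beside Parp1. Parp2 measured 14.7, 14.8, 16.1, 14.3, 16.6 and 14.3 FPKM in double mutants 1 to 6 and 8.79, 11.9, 9.58 and 8.87 FPKM in the controls. All 6 double mutants were above all 4 controls, with control 2 highest of its group, a separation in this direction that 15.5% of all genes tested shared. The rise was 0.59 on the log2 scale (0.39 to 0.78, adjusted p = 0.000391), 1.54 times the control mean in FPKM. It stayed called in all 23 alternatives, over which it ranged from 0.47 to 0.68. The summed granule neuron and astrocyte markers were separate between the same groups and in the same direction as Parp2 and Lig3, and their part in either rise was not tested.

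Parp1, which makes most of the poly(ADP-ribose) formed at breaks, was not called. Parp1 measured 17.7, 18.3, 18.4, 13.6, 18.4 and 18.7 FPKM in double mutants 1 to 6 and 15.5, 21.8, 17.2 and 16.0 FPKM in the controls. The groups overlapped, double mutant 4 was far below the other double mutants and control 2 was far above the other controls. The difference was -0.01 with an interval of -0.21 to 0.20 (adjusted p = 0.966). Xrcc1, the scaffold, followed the same libraries. It measured 9.90, 12.2, 11.4, 7.20, 11 and 9.60 FPKM in double mutants 1 to 6 and 8.10, 11.6, 9.18 and 8.18 FPKM in the controls. Double mutant 4 was again the lowest and control 2 the highest of its group, and the groups overlapped. The Xrcc1 difference of 0.12 had the widest interval of the 9 (-0.13 to 0.38, adjusted p = 0.455).

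Lig3, the ligase that is held by Xrcc1 and that also seals mitochondrial DNA, was high in every double mutant. Lig3 measured 5.70, 6.62, 6.52, 5.84, 6.92 and 6.07 FPKM in double mutants 1 to 6 and 4.76, 4.97, 5.20 and 5.18 FPKM in the controls. The groups did not overlap. Lig3 rose by 0.27 (0.14 to 0.40, adjusted p = 0.00472), 1.25 times the control mean. The call was lost in 1 of 23 alternatives, with the level of Ddx3y as a covariate (0.17, adjusted p = 0.0523). Rffl, the gene that overlaps the end of Lig3 on the opposite strand and encodes a ubiquitin ligase, differed by 0.11 (-0.07 to 0.28) and was not called.

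Top1, which relaxes supercoiled DNA by cutting a single strand, ranged from 27.7 to 33.1 FPKM in double mutants (median 29.5) and measured 26.1, 26.2, 26.8 and 25.0 FPKM in the controls. The groups did not overlap, and Top1 rose by 0.18 (0.06 to 0.31, adjusted p = 0.0292). Tdp1, which removes stalled topoisomerase 1 from 3′ ends, measured 4.32, 4.5, 4.21, 3.55, 4.94 and 4.35 FPKM in double mutants 1 to 6 and 3.88, 3.87, 3.5 and 3.02 FPKM in the controls. Only double mutant 4 lay within the range of the controls, and Tdp1 rose by 0.22 (0.05 to 0.39, adjusted p = 0.0489). Neither call was firm: Top1 was lost in 7 and Tdp1 in 17 of 23 alternatives. Without control 4, which had the highest summed level of brain stem and pituitary markers (159 FPKM), Top1 was at 0.17 (adjusted p = 0.0744) and Tdp1 at 0.16 (adjusted p = 0.156), while Parp2 (0.55), Lig3 (0.28) and Aptx (-0.35) stayed called.

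Tdp2 and Polb were not called in double mutant cerebellum. Tdp2, which frees 5′ ends from topoisomerase 2, ranged from 14.6 to 16.7 FPKM in double mutants (median 15.3) and from 13.2 to 14.7 FPKM in controls (median 14.2). These ranges overlapped at their edges, and the difference was 0.12 (0.01 to 0.23, adjusted p = 0.0777). Polb, the gap-filling polymerase, ranged from 24.7 to 27.2 FPKM in double mutants (median 25.8) and from 24.5 to 29.3 FPKM in controls (median 27.7), and its difference was -0.07 (-0.20 to 0.05, adjusted p = 0.339).

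**Figure D2:**
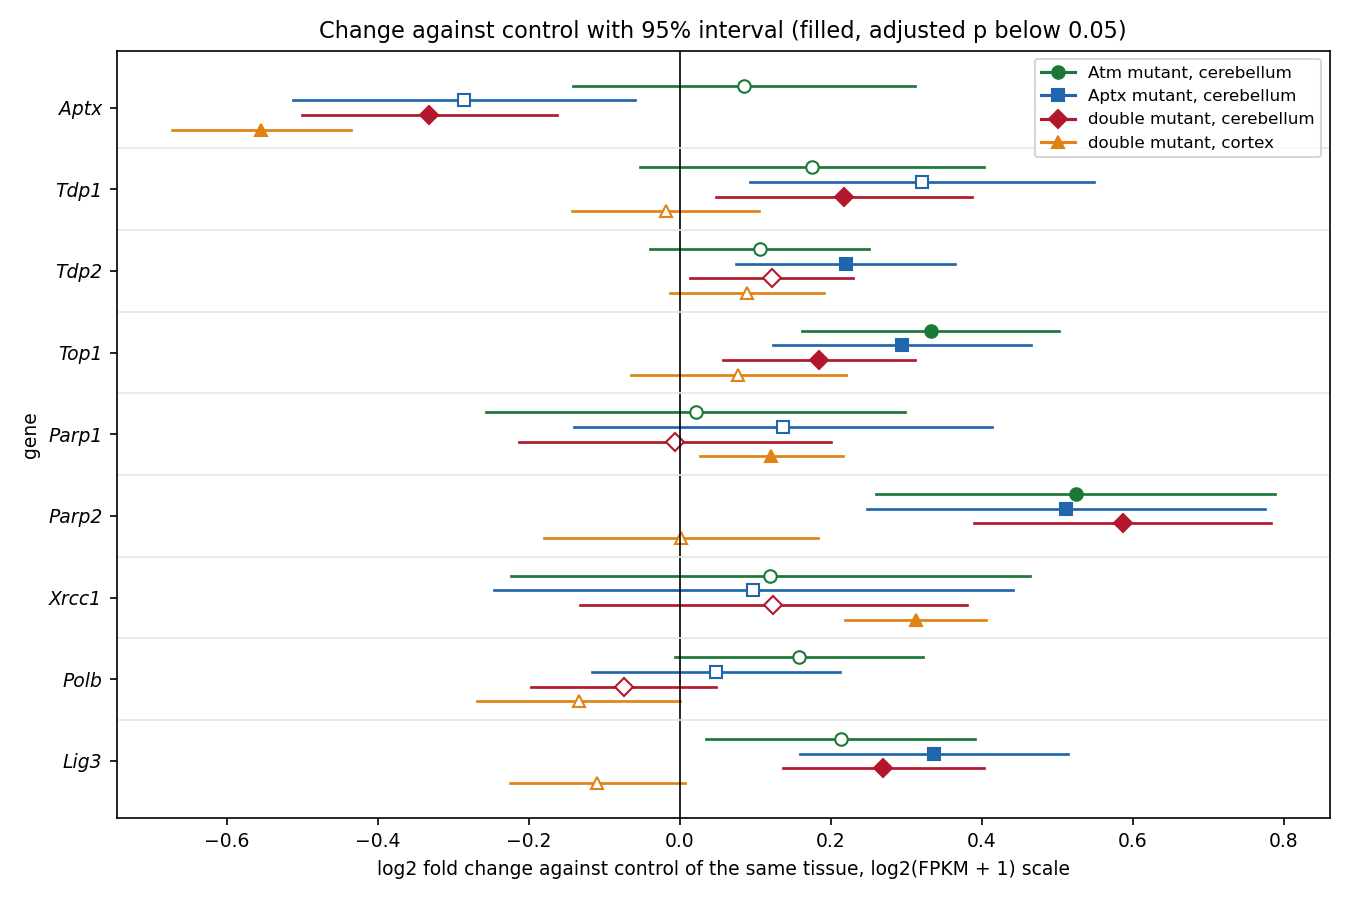
Log2 fold change against controls of the same tissue (horizontal axis, log2(FPKM + 1) scale) for each of the 9 genes, with 95% intervals. Filled symbols passed an adjusted p below 0.05. Parp2 is at 0.51 to 0.59 in the 3 cerebellum comparisons and at 0.00 in cortex, and the 3 cerebellum comparisons share their 4 control libraries.

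The single mutants were compared with the same 4 cerebellum controls, so their values cannot count as separate evidence and are given side by side. Parp2 measured 16.4 and 12.4 FPKM in Aptx mutants and 15.8 and 13.2 FPKM in Atm mutants. All 4 libraries were above all controls. The share of all genes separate in this way was not counted for the single mutants, so such separations below are description only. Parp2 rose by 0.51 in Aptx mutants (0.25 to 0.77, adjusted p = 0.0141) and by 0.52 in Atm mutants (0.26 to 0.79, adjusted p = 0.0171), beside the 0.59 of the double mutants. Without Aptx mutant 1 the Parp2 difference of the Aptx mutants was 0.32 (adjusted p = 0.210), and without Atm mutant 1 that of the Atm mutants was 0.40 (adjusted p = 0.175).

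In Aptx mutants, 4 of the 9 genes rose (Parp2, Lig3, Top1 and Tdp2) and none fell, where 15.6% of all genes were called, 10.4% higher and 5.16% lower. Lig3 measured 6.95 and 6.28 FPKM and rose by 0.34 (0.16 to 0.51, adjusted p = 0.0156). Top1 measured 29.7 and 34.8 FPKM and rose by 0.29 (adjusted p = 0.0240). Both Aptx mutants were above all controls for each of these genes. Tdp2, at 17.1 and 16.0 FPKM, was above all controls too and rose by 0.22 (adjusted p = 0.0410), a call lost in 14 of 23 alternatives. Tdp1 was at 0.32 with an adjusted p of 0.0544, and Parp1, Xrcc1 and Polb differed by 0.14, 0.10 and 0.05 without a call. The number of calls rested on the 2 mutant libraries: it was 1 without either of them.

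In Atm mutants, 2 of the 9 genes rose (Parp2 and Top1) and none fell, where 10% of all genes were called, 6.78% higher and 3.25% lower. Top1 measured 33.1 and 32.9 FPKM, above all controls, and rose by 0.33 (0.16 to 0.50, adjusted p = 0.0188). Lig3 measured 6.15 and 5.82 FPKM, also above all controls, and its difference of 0.21 (0.04 to 0.39) was not called (adjusted p = 0.113). The differences of Tdp1 (0.17), Polb (0.16), Xrcc1 (0.12), Tdp2 (0.11) and Parp1 (0.02) were not called. Without Atm mutant 1 none of the 9 was called, and without Atm mutant 2 there was 1 call.

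The cerebellum mutants share the name code among themselves and were also compared directly. Against Aptx mutants, 0.143% of all genes and none of the 9 were called in double mutants. The differences ran from -0.14 for Parp1 (-0.40 to 0.12) to 0.08 for Parp2 (-0.17 to 0.32), and over all genes 1031 had an unadjusted p below 0.05. Against Atm mutants, Parp2 differed by 0.06 (-0.19 to 0.31), Lig3 by 0.06 (-0.11 to 0.22), Top1 by -0.15 (-0.31 to 0.01) and Polb by -0.23 (-0.39 to -0.08, adjusted p = 0.120). The single mutant groups held 2 libraries each, and intervals of this width do not show that the genotypes are alike.

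The departure from additivity (double mutant minus Aptx mutant minus Atm mutant plus control) was negative for all 9 genes, and its median over all genes tested was -0.05. The 9 values rest on the same libraries, so their signs are not separate evidence, and the share of all genes with a negative sign was not counted. Median changes against controls over all genes were 0.06 in double mutants, 0.06 in Aptx mutants and 0.05 in Atm mutants. The mutant groups share a name code that the controls lack. An offset between the codes would enter this contrast with its sign reversed, so such an offset and a departure cannot be told apart. Top1 was called, at -0.44 (-0.68 to -0.21, adjusted p = 0.0376), in a contrast that called 4.51% of all genes. The Top1 change of double mutants, 0.18, was below that of either single mutant, 0.29 and 0.33. Parp2 had the same size, -0.45 (-0.81 to -0.09), without a call (adjusted p = 0.141). The Top1 call was lost in 13 of 22 alternatives.

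In double mutant cortex, Xrcc1 and Parp1 rose and Aptx fell, which is 2 of 9 higher and 1 lower, where 38.8% of the 12815 genes tested were called, 24.3% higher and 14.5% lower. Xrcc1 measured 8.03, 7.90, 7.59, 8.09, 7.78 and 7.36 FPKM in double mutants 1 to 6 and 5.90, 6.20, 6.03 and 6.18 FPKM in the controls. The groups were far apart compared with their spread, and 17.7% of all genes tested were separate in this direction. Xrcc1 rose by 0.31 (0.22 to 0.41, adjusted p = 0.000166), 1.28 times the control mean, and the call held in all 18 alternatives. The summed excitatory neuron markers were higher and the oligodendrocyte markers lower in the same double mutants, without overlap, and their part in the Xrcc1 rise was not tested. Parp1 ranged from 18.9 to 21.4 FPKM in double mutants (median 20.5) and measured 19.1, 17.9, 19.1 and 18.3 FPKM in the controls. The Parp1 ranges overlapped, its rise was 0.12 (0.03 to 0.22, adjusted p = 0.0440), and the call was lost in 13 of 18 alternatives. Of all called genes in cortex, 62.6% were higher in the main fit, 49.6% after quantile normalization and 50.7% after median rescaling.

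The genes that rose in double mutant cerebellum were not called in cortex. Parp2 measured 9.70, 9.87, 9.11, 10.2, 9.66 and 10.9 FPKM in cortex double mutants 1 to 6 and 10.3, 10.2, 11.6 and 7.75 FPKM in the controls. The double mutants lay inside the range of the controls, whose low end was control 4 alone, the library that stood apart. The difference was 0.00 with an interval of -0.18 to 0.18, and without control 4 it was -0.10 (adjusted p = 0.195), with a tissue difference of 0.69 (adjusted p = 0.000229). Lig3 measured 3.93, 3.74, 3.61, 4.17, 4.18 and 3.93 FPKM in double mutants 1 to 6 and 4.03, 4.51, 4.36 and 4.35 FPKM in the controls. All 6 double mutants were below 3 of the 4 controls, with a difference of -0.11 (-0.23 to 0.01, adjusted p = 0.123). Top1 (0.08, -0.07 to 0.22), Tdp1 (-0.02, -0.14 to 0.10), Tdp2 (0.09, -0.01 to 0.19) and Polb (-0.13, -0.27 to 0.00) were not called.

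The difference between tissues was tested directly, by subtracting the cortex change of double mutants from their cerebellum change. Parp2 differed by 0.59 (0.33 to 0.84, adjusted p = 0.00174) and Lig3 by 0.38 (0.22 to 0.54, adjusted p = 0.00165), which is 2 of 9 genes higher, where 27.1% of the 12322 genes tested were called, 15.4% higher and 11.7% lower. Both calls held in all 29 alternatives, over which Parp2 ranged from 0.51 to 0.69 and Lig3 from 0.33 to 0.45. Tdp1 (0.24, 0.03 to 0.44, adjusted p = 0.0813), Aptx (0.22, 0.03 to 0.41, adjusted p = 0.0738) and Xrcc1 (-0.19, -0.49 to 0.11, adjusted p = 0.341) were not called, so the cortex call of Xrcc1 was not shown to differ from its cerebellum value. Tdp1 was called with the replicate number as a block (adjusted p = 0.0437) and without cerebellum double mutant 4 (0.28, adjusted p = 0.0235), but not with the block within genotype. Rffl, whose end overlaps Lig3, fell by 0.36 in double mutant cortex (adjusted p = 0.00116) and had a tissue difference of 0.46 (0.27 to 0.66, adjusted p = 0.00149). The part of shared reads in the Lig3 value was not tested. In the same cortex libraries 7 of 8 oligodendrocyte markers fell, where 14.5% of all genes tested fell. In cerebellum all 8 tested of 10 brain stem and pituitary markers fell, where 10.1% of all genes tested fell. Of these 10, 9 averaged under 1 FPKM in double mutants and 4 in controls. Such markers could pass the filter through the controls alone, which fixes a fall in advance.

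**Figure D3:**
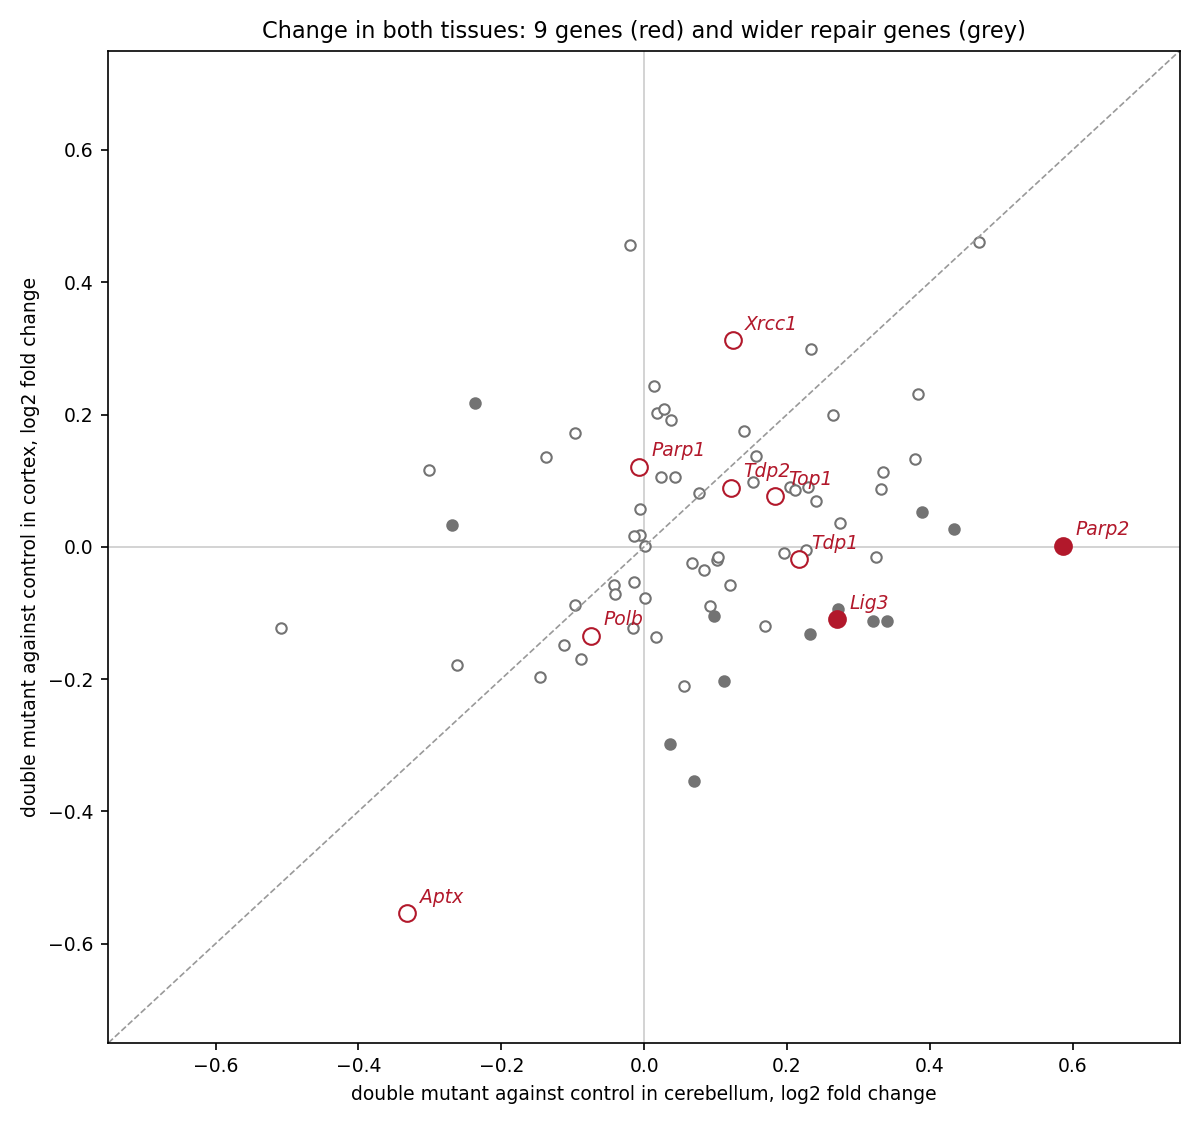
Log2 fold change of double mutants against controls in cerebellum (horizontal axis) and cortex (vertical axis) for the 9 genes (red) and 65 wider repair genes (grey). The dashed line marks equal change. Filled points passed the test of the tissue difference: Parp2 (0.59 in cerebellum, 0.00 in cortex), Lig3 (0.27 and -0.11) and 12 of the wider genes.

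The wider repair genes were described from 7 lists of 73 genes. The lists held enzymes of poly(ADP-ribose) turnover, end processing and ligation, base excision glycosylases, and other topoisomerases and ribonucleotide removal. They also held partners of aprataxin with subunits of the kinase CK2, other histidine triad proteins, and other repair genes of inherited ataxia. In double mutant cerebellum 21 of the 68 tested rose, 3 fell and 44 were not called, with a median change of 0.07 against 0.06 over all genes. In double mutant cortex 10 of 65 rose, 4 fell and 51 were not called, with a median of 0.02 against 0.03. Over all genes 22.3% rose and 10.1% fell in cerebellum, and 24.3% rose and 14.5% fell in cortex. In Aptx mutants 12 of 68 rose and 1 fell, where 10.4% of all genes rose and 5.16% fell, and in Atm mutants 1 rose and 2 fell, where 6.78% rose and 3.25% fell. None was called between double mutants and Atm mutants (2.24% of all genes) or Aptx mutants (0.143%). For the tissue difference 10 of 65 were higher and 2 lower, where 15.4% of all genes tested were higher and 11.7% lower.

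Among genes that process and seal ends, 6 of 20 tested rose in double mutant cerebellum and none fell, where 22.3% of all genes rose and 10.1% fell. They included Polg2, the accessory subunit of the mitochondrial polymerase (5.02 ± 0.32 FPKM in 6 double mutants, 3.76 ± 0.31 in 4 controls, 0.34 on the log2 scale, adjusted p = 0.00185), and Rfc4, a subunit of the clamp loader (5.0 ± 0.35 against 3.96 ± 0.20, 0.27, adjusted p = 0.00427). Rfc1 (0.23) and Rfc3 (0.26), of the same loader, rose as well. Polg2 and Rfc4 also had called tissue differences, of 0.45 and 0.37, as did Lig1, the replicative ligase and another of the 6 (0.36). The Rfc4 tissue difference was lost in 4 of 29 alternatives and the cerebellum call of Rfc3 in 5 of 23. Of the glycosylases 2 of 9 rose against the same 22.3%, Mbd4 (0.23) and Ogg1, which removes oxidised guanine (0.32). The Ogg1 call was lost in 11 of 23 alternatives, over which it ranged from 0.16 to 0.53 (0.16, adjusted p = 0.306, with the Ddx3y covariate), and Mbd4 was lost in 1 of 23.

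The list of aprataxin partners and CK2 subunits gave 4 rises of 9 tested in double mutant cerebellum and no fall. Over all genes 22.3% were higher and 10.1% lower. Xrcc4, the scaffold of double-strand break ligation that aprataxin also binds, was at 3.21 ± 0.26 FPKM in double mutants and 2.12 ± 0.29 in controls and rose by 0.43 (adjusted p = 0.000918). Ncl (nucleolin, 0.38) and Npm1 (nucleophosmin, 0.24), nucleolar partners, and Csnk2b, the regulatory subunit of the kinase CK2 that phosphorylates Xrcc1 (0.47), rose too. In cortex 2 of 9 rose and 1 fell, where 24.3% of all genes rose and 14.5% fell. There Csnk2b rose by 0.46 (adjusted p = 1.05e-05), Csnk2a2 by 0.14, and Mdc1 fell by 0.20. The cortex calls of Csnk2a2 and Mdc1 were lost in 13 and 11 of 18 alternatives, that of Mdc1 to -0.11 (adjusted p = 0.438) with the Ddx3y covariate, while Csnk2b held in all 18. The Xrcc4 effect differed between tissues by 0.41 (adjusted p = 0.00741).

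Aptx belongs to the histidine triad superfamily, and 2 of 6 other members rose and 1 fell in double mutant cerebellum, where 22.3% of all genes rose and 10.1% fell. Dcps, which hydrolyses messenger RNA caps, rose by 0.38 and Galt, an enzyme of galactose metabolism, by 0.33. Fhit, a diadenosine hydrolase, was at 1.98 ± 0.69 FPKM in double mutants, 1.23 ± 0.15 in 2 Aptx mutants, 3.26 ± 0.17 in 2 Atm mutants and 3.21 ± 0.85 in controls. It fell by 0.51 in double mutants (adjusted p = 0.0313) and by 0.90 in Aptx mutants (adjusted p = 0.0169), calls lost in 7 and 3 of 23 alternatives. In cortex 2 of 6 rose, Hint1 by 0.19 and Hint2 by 0.18, and none fell, where 24.3% of all genes rose and 14.5% fell. Hint1 was at 0.00 after quantile normalization (adjusted p = 0.948) and 0.15 with the Ddx3y covariate (adjusted p = 0.102), and the Hint2 call was lost in 5 of 18 alternatives.

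Of the other ataxia genes, 4 of 7 rose in double mutant cerebellum, where 22.3% of all genes rose, and none of 7 was called in cortex, where 38.8% were called. Besides Atm these were Ercc8, which acts in transcription-coupled repair (10.1 ± 0.75 against 7.48 ± 0.84 FPKM, 0.39, adjusted p = 0.000936), Xpa of nucleotide excision repair (0.32) and Mre11a, a nuclease of double-strand breaks (0.23). Ercc8 and Xpa held in all 23 alternatives, while Mre11a was lost in 6 and Atm in 3. Ercc8 also rose in Aptx mutants (0.37) and in Atm mutants (0.33), against the same controls, calls lost in 4 and 11 of 23 alternatives. Xpa and Ercc8 had called tissue differences of 0.43 and 0.34. Of 10 genes of poly(ADP-ribose) turnover, 1 rose and 1 fell in double mutant cerebellum, where 22.3% of all genes rose and 10.1% fell. AI314976 (Oard1, which removes terminal ADP-ribose) rose by 0.33. 2700029M09Rik (Hpf1, the cofactor of Parp1 and Parp2 for serine modification) fell by 0.24. In cortex 2 of the 10 rose, Hpf1 by 0.22 among them, and none fell, where 24.3% of all genes rose and 14.5% fell. The Hpf1 tissue difference of -0.45 (adjusted p = 0.00403) held in all 29 alternatives. The Hpf1 calls within a tissue were lost in 9 of 23 alternatives in cerebellum and 4 of 18 in cortex, and the Oard1 call in 2 of 23. Of the topoisomerase and ribonucleotide list, 2 of 8 tested rose and 1 fell in double mutant cerebellum, against the same 22.3% and 10.1%. Top3b (0.20) and Rnaseh2b (0.21) rose and Rnaseh2a fell by 0.27. Top3b and Rnaseh2b were each lost in 12 of 23 alternatives, Top3b at 0.12 (adjusted p = 0.250) with the Ddx3y covariate, and Rnaseh2a in 1.

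Some of the 9 genes varied together between libraries of the same group. After the group means were removed, Xrcc1 and Parp1 had a Pearson r of 0.89 over 14 cerebellum libraries and -0.62 over 10 cortex libraries. In cerebellum the 2 genes shared the low value of double mutant 4 and the high value of control 2. Tdp2 ran the other way there, with r = -0.75 to Xrcc1 and -0.73 to Parp1, and double mutant 4 had the highest Tdp2 of its group (16.7 FPKM). Lig3 and Parp2 had r = 0.86 over the 14 libraries and 0.51 within groups. These values are descriptions over libraries that share a tissue. Within groups in cerebellum, r of Xrcc1 with Parp1 was the highest among all pairs of the 9 genes. Those of Tdp2 with Xrcc1 and Parp1 were the lowest, so the size of these r is in part fixed by the choice. The 14 cerebellum libraries include mutants and controls, whose name codes differ, so the 0.86 of Lig3 and Parp2 also spans that split.

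The genes most like Aptx over the 14 cerebellum libraries were Mllt11 (r = 0.95), Dgke (0.94), Poc1a (0.89), Hecw1 (0.88) and Ndst3 (0.87), on the log2 scale. Over the 10 cortex libraries the same genes had r of -0.63, 0.73, 0.51, -0.53 and 0.65 with Aptx. The closest gene to Parp2 in cerebellum was Lrpap1 (0.95, and 0.14 in cortex), that to Lig3 was Rad50 (0.96, and -0.57 in cortex), and that to Xrcc1 was Sirpa (0.96, and 0.81 in cortex). Prex1 was closest to Parp1 (0.93, and 0.79 in cortex), Mettl3 to Tdp1 (0.95, and 0.29), Zfp326 to Tdp2 (0.95, and 0.27), Tra2a to Top1 (0.94, and 0.73) and Zmym1 to Polb (0.88, and 0.48). All these genes were picked as the highest of 13277, so a high r in cerebellum is fixed by the choice, and only the cortex values were free of it.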

How the data were processed

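Total RNA, depleted of ribosomal RNA, was made into stranded libraries. The authors mapped reads to mm9 with BWA 0.5.10, counted reads per gene with HTSeq (version not given in the sources used here) and deposited FPKM values, one column per library, 1 table per tissue; raw counts were not used here and the depth is unknown, so precision rests on the replicate libraries. Values were transformed as log2(FPKM + 1). Genes of at least 1 FPKM in at least 2 of the cerebellum or 4 of the cortex libraries were tested, 13277 and 12815 genes. Two-sided tests used limma (version 3.58.1, R 4.3.3), whose moderated variances followed the mean level, and p-values were adjusted by Benjamini-Hochberg over all genes tested. There was 1 fit of the 14 cerebellum libraries, 1 of the 10 cortex libraries and 1 of the 20 double mutant and control libraries of both tissues on 12322 genes. Summaries used Python 3.11.15 with pandas 2.3.3 and numpy 2.4.6. The fit was tested on simulated data.

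Groups came from the labels. The 9 genes and all gene lists were chosen with earlier results of these data known. Named genes were all 9 and Atm, up to 4 called genes with the smallest p from each repair list, and the genes with the highest r to each of the 9 in cerebellum. AI314976, 2700029M09Rik and 8430406I07Rik stand for Oard1, Hpf1 and Mgme1. Promoter windows and gene positions came from RefSeq (GRCm38.p6) and GENCODE vM1 (mm9). Same-numbered libraries deviated together across the tissues (r 0.234 to 0.499 over 6 double mutant pairs and 0.130 to 0.308 over 4 control pairs). The number was therefore taken to pair them there, though r between different numbers was not computed. Names of same-numbered double mutant libraries also share a leading tag across tissues, and those of controls do not. The labels do not say that a number is an animal, and the main fit of both tissues did not use the pairing. Alternatives were pseudocounts of 0.1 and 0.01, no filter on low values, quantile normalization, median rescaling, no intensity trend, a replicate block, Ddx3y as a covariate, only the groups compared, and each library left out; a replicate block within genotype was added after seeing the data.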

Additional observations from a re-analysis of the deposited data

Results flagged for a closer look

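In double mutant cerebellum, Parp1 was at 13.6 FPKM in double mutant 4, where the gap to the next library was large for a group of 6. The other 5 double mutants lay between 17.7 and 18.7 FPKM. In double mutant cortex, Tdp1 was at 2.62 FPKM in double mutant 4 and at 2.99 to 3.13 FPKM in the other 5. A gap test of this kind was run on 40 groups and 2 passed, and chance passes about 1 in 20. Double mutant 4 also had the lowest Xrcc1 and Tdp1 of its group in cerebellum, and no label sets it apart.

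The change of double mutants against controls differed between cerebellum and cortex for Parp2 (log2 difference 0.59, adjusted p = 0.00174) and for Lig3 (0.38, adjusted p = 0.00165), in the limma test of the difference itself. For both genes the difference stayed positive whichever library was left out.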

How the results depend on the processing

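Over all alternatives no called change of the 9 genes turned its direction. In double mutant cerebellum the number of the 9 called fell from 5 to 3 under median rescaling, the replicate block and the Ddx3y covariate, and ranged from 3 to 5 with a library left out (3 without double mutant 5, double mutant 6, control 1 or control 4). In Aptx mutants it fell from 4 to 2 with the replicate block and 1 with only the groups compared, and ranged from 1 to 5 with a library left out. In Atm mutants it fell from 2 to 1 under quantile normalization, median rescaling, the replicate block and only the groups compared, and ranged from 0 to 2. The 1 call against Atm mutants (Aptx) was 0 with no filter on low values, the replicate block, the Ddx3y covariate or only the groups compared, and 0 to 1 with a library left out. The 1 call of the departure from additivity (Top1) was 0 under quantile normalization, median rescaling, no intensity trend and the replicate block, and 0 to 2 with a library left out. In cortex, 2 to 3 of the 3 calls and in the tissue difference 2 to 3 against 2 calls were found with a library left out. Within a tissue the replicate numbers do not pair the genotypes (r -0.120 to 0.365 between double mutants and controls in cerebellum, 2 of 4 pairs over 0.1). Across tissues, where the numbers were taken to pair libraries, the replicate block within genotype changed no call of the tissue difference among the 9. A block on the number alone also called Tdp1 (adjusted p = 0.0437).

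Counts over all genes moved more. They fell in Aptx mutants from 2070 to 1344 (Ddx3y covariate) and 1216 (only the groups compared), in Atm mutants from 1331 to 846 (replicate block) and 524 (only the groups compared), and in cortex from 4970 to 3042 (replicate block) and 2340 (Ddx3y covariate). Between double and Atm mutants 297 became 44 (replicate block), 115 (Ddx3y covariate) and 180 (only the groups compared). Between double and Aptx mutants 19 became 7 (no filter), 11 (no intensity trend), 2 (replicate block) and 9 (only the groups compared), and the departure from additivity went from 599 to 140 (replicate block). With a library left out these counts ranged from 469 to 2615 in Aptx mutants, 326 to 1777 in Atm mutants, 39 to 378 against Atm mutants, 2 to 45 against Aptx mutants and 114 to 888 for additivity. Of the calls of the 9 against controls, the most often lost were Tdp1 in double mutant cerebellum (17 of 23 alternatives), Parp1 in cortex (13 of 18) and Tdp2 in Aptx mutants (14 of 23). The depth is unknown, so counting error could not be given.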
